A study of Mus musculus with 24 samples.

Results

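The genes described here are 8 that encode transcription factors of the myeloid lineage, Spi1, Cebpa, Cebpb, Cebpd, Cebpe, Gfi1, Klf4 and Runx1. They were chosen by name, for their known role in myeloid development, and not by any measured value, although earlier results of these data were known. They are 8 of the 24421 genes counted, and all 8 were among the 12742 genes with enough counts to be tested. RNA-seq was done on bone marrow mononuclear cells of Shp2 E76K mice, whose mutant phosphatase Shp2 (gene Ptpn11) is constantly active and which are used to model juvenile myelomonocytic leukemia. All 4 groups carried Shp2 E76K, and no wild-type mice were compared. For 3 weeks the mice received vehicle, ACP196 (which blocks Bruton's tyrosine kinase, here the BTK inhibitor), ACP319 (which blocks the p110δ catalytic subunit of phosphoinositide 3-kinase, here the PI3K inhibitor), or both inhibitors (here the combination). Each group had 3 specimens: vehicle replicates 1 to 3, BTK inhibitor replicates 4 to 6, PI3K inhibitor replicates 7 to 9, and combination replicates 10 to 12. The labels give neither the age of the mice nor the promoter or Cre that drives the allele. Whether a number stands for 1 mouse is not stated, so the tests rest on the spread between specimens, which may be technical.

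Spi1 encodes PU.1, an ETS factor that opens chromatin at myeloid genes and on which monocytes and granulocytes depend. Runx1 binds DNA with its partner CBFβ and acts upstream of Spi1 in the blood stem and progenitor cell. C/EBPα carries progenitors to the granulocyte-monocyte stage. C/EBPε and GFI1 then drive the neutrophil programme, C/EBPε through the secondary granule genes and GFI1 as a repressor of the monocyte programme. C/EBPβ supports granulocyte production under cytokine demand, C/EBPδ is induced by inflammation and during granulocyte maturation, and KLF4 promotes monocyte differentiation downstream of PU.1.

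The genes differ in size and structure, which bears on the results below. In mm10, Runx1 lies on chromosome 16 from 92601466 to 92826074 on the minus strand and has the longest counted exon length of the 8, 7378 bases in 8 exon blocks. Cebpe (chromosome 14, 54710363 to 54712174, minus strand) is the shortest at 1238 bases in 2 exons, and Spi1 (chromosome 2, 91096797 to 91115756, plus strand) has 1333 bases in 5. Cebpa (chromosome 7, 35119293 to 35121931), Cebpb (chromosome 2, 167688915 to 167690432) and Cebpd (chromosome 16, 15887286 to 15889545) are single-exon genes on the plus strand of 2639, 1518 and 2260 bases. Gfi1 (chromosome 5, 107716655 to 107725805) and Klf4 (chromosome 4, 55527137 to 55532475), both on the minus strand, have 3107 and 3044 bases in 7 and 5 exon blocks. The 3′ end of Cebpd overlaps exons of Spidr on the other strand by 321 bases (15889225 to 15889545), and reads there cannot be assigned to a strand with this library type.

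Runx1 is the member with a call against vehicle and has 2 promoters, whose transcripts the count table adds together. Klf4 is the other member whose PI3K inhibitor specimens all lay below all vehicle specimens. The 250 bases before their starts are therefore shown, 5′ to 3′ on the gene's strand (RefSeq, GRCm38.p6), with motif letters in capitals.
Runx1 distal, chr16:92826075-92826324, minus strand: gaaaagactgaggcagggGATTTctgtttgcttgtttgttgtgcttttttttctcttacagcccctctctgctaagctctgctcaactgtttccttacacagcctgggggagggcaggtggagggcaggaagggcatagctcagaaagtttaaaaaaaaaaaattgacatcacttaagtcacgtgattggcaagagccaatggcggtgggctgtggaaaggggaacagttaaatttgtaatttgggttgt
Runx1 proximal, chr16:92697330-92697579, minus strand: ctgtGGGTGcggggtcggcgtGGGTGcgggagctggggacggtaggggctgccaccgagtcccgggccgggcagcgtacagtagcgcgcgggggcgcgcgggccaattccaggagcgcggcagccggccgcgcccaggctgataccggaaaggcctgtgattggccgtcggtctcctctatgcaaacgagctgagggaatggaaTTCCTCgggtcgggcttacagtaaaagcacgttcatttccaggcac
Klf4, chr4:55532476-55532725, minus strand: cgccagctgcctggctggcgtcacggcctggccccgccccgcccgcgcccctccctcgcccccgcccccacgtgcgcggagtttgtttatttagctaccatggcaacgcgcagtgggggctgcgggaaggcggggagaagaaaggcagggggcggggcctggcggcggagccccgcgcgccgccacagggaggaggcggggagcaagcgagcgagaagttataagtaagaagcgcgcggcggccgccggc
Short cores of the members' own binding sites were searched on both strands: TTGCG (C/EBP), GAGGAA (PU.1 and other ETS factors), TGTGGT (RUNX), AAATC (GFI1) and CACCC (KLF). In the distal Runx1 window, which has 45.6% GC, the capitals mark a GFI1 core on the reverse strand 232 bases before the start. In the proximal window, which has 67.6% GC, they mark a PU.1 core on the reverse strand 46 bases before the start and a pair of KLF boxes at 246 and 229 bases. The Klf4 window (74.0% GC) held none of these letters. Over 32851 promoter windows of the same length, 14.5% held TTGCG, 23.3% GAGGAA, 14.0% TGTGGT and 32.7% AAATC, and 17087 windows held CACCC, so each of these matches is common. RefSeq promoter entries were found for 5 of the 8 members (7 promoters), and Cebpd, Cebpe and Spi1 were not matched. Among the others, Cebpa held a C/EBP core 185 bases before its start.

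Total counts per specimen lay between 8993950 and 22154833, and the 8 genes had between 89 counts (Gfi1 in BTK inhibitor replicate 5) and 10102 counts (Spi1 in vehicle replicate 1). BTK inhibitor replicate 5 stood apart, with the lowest depth and a share of 15.4% for Rn45s, a precursor of ribosomal RNA (0.203% to 0.773% elsewhere). The title of BTK inhibitor replicate 6 carries day 30 in place of day 24, and what was done on that day is not stated. A trend with gene length set libraries apart too: log2 expression changed per doubling of length by 0.22 ± 0.16 in vehicle (SD, n = 3), -0.15 ± 0.29 with the BTK inhibitor, -0.28 ± 0.16 with the PI3K inhibitor and 0.21 ± 0.10 with both. The labelled cell population was checked with marker sums in CPM (counts scaled to library size with TMM factors). Neutrophil markers, 7 of 8 in the table, summed to between 35247 and 134110 CPM and monocyte markers to between 1505 and 2992 CPM. B lineage markers summed to 126 to 512 CPM and T and NK markers, 8 of 9 in the table, to 121 to 459 CPM. The sums for stem and progenitor, macrophage, dendritic cell and megakaryocyte lists stayed between 63.6 and 636 CPM, and those for eosinophils, basophils and mast cells lay between 1711 and 8266 CPM. Of the 10 erythroid markers the globin genes Hba-a1 and Hbb-bt had no count. In these bulk specimens fewer cells of a type and less RNA per cell cannot be told apart.

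Expression of the 8 factors spanned a wide range when compared per length (mean CPM per kilobase of exon over 12 specimens). Cebpe at 266 and Spi1 at 264 were the highest and did not separate, since Cebpe was above Spi1 in 4 of 12 specimens. Both were above about 97.5% of the tested genes. Cebpb followed at 95.7, Cebpd at 65.9 and Cebpa at 27.1 CPM per kilobase. Gfi1 stood at 12.9 and Klf4 at 11.0, with Gfi1 above Klf4 in 11 of 12 specimens, the exception being BTK inhibitor replicate 5. Runx1 was lowest at 6.76 CPM per kilobase, near the middle of the tested genes. Every other neighbouring pair in this order kept its order in 12 of 12 specimens. Across the 12 specimens the ratio of the highest to the lowest CPM was smallest for Spi1, at 2.05, and largest for Klf4, at 4.75.

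**Figure D1:**
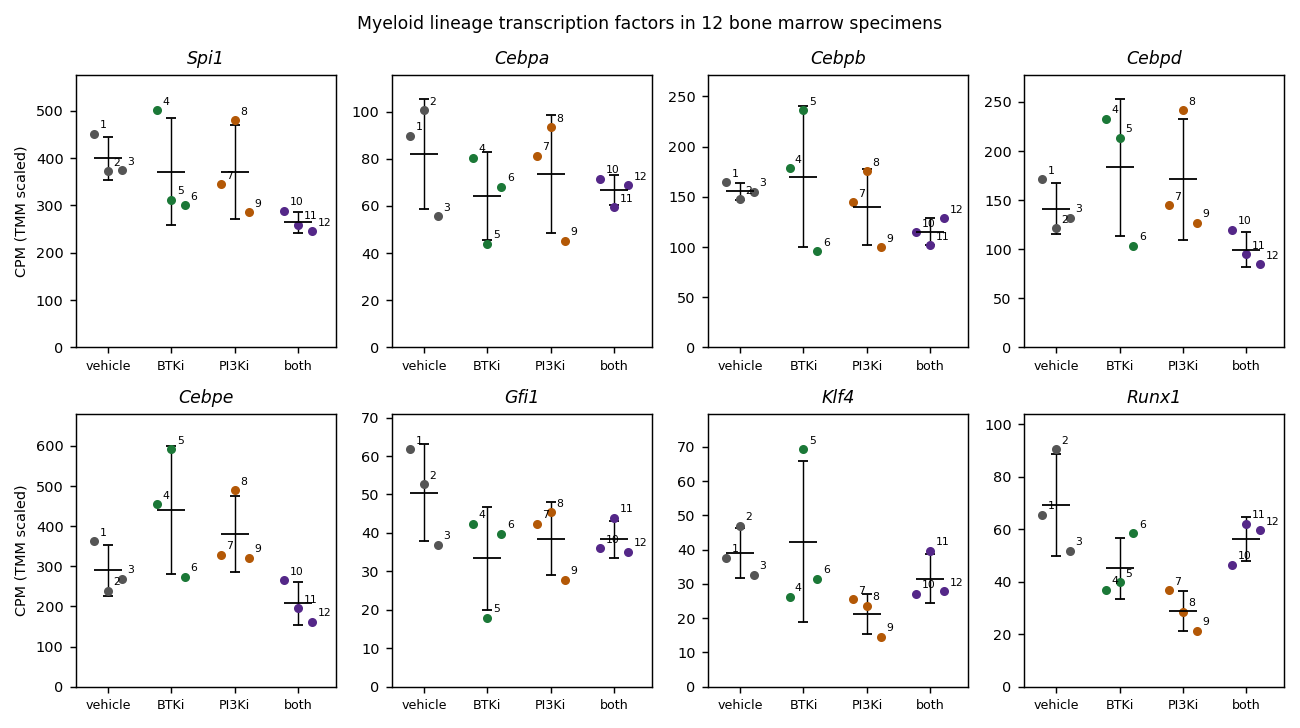
CPM of each factor (y axis, TMM scaled, from 0) in the 4 groups (x axis: vehicle, BTKi for the BTK inhibitor, PI3Ki for the PI3K inhibitor, both for the combination), with points numbered by specimen and bars for the mean ± SD (n = 3). The PI3K inhibitor specimens of Runx1 sit between 21.4 and 36.7 CPM, below the vehicle range of 51.8 to 90.4, while the combination specimens of Spi1 sit between 245 and 289, below the vehicle range of 372 to 452.

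Runx1, the stem and progenitor factor, fell with the PI3K inhibitor. Its level was 65.6, 90.4 and 51.8 CPM in the vehicle specimens and 36.7, 28.6 and 21.4 CPM in the PI3K inhibitor specimens, which do not overlap. With the BTK inhibitor it was 36.9, 39.8 and 58.5 CPM, and with the combination 46.5, 62.1 and 59.7 CPM. Each of these groups reaches into the vehicle range through at least 1 specimen, and the combination lies wholly above the PI3K inhibitor group. Of all tested genes 26.5% also lay higher without overlap in the combination than with the PI3K inhibitor. Means were 69.3 ± 19.6 CPM in vehicle and 28.9 ± 7.67 with the PI3K inhibitor (SD, n = 3), a log2 difference of -1.26 ± 0.29 SE (adjusted p = 0.0399, quasi-likelihood test of edgeR, Benjamini-Hochberg adjustment over 12742 genes). Runx1 was the only 1 of the 8 factors called in this comparison, in which 10.7% of all tested genes were called (617 higher and 742 lower) and 51.2% did not overlap between the groups. Against the same vehicle specimens the log2 difference of Runx1 was -0.62 ± 0.29 for the BTK inhibitor and -0.30 ± 0.29 for both inhibitors, and neither passed (edgeR adjusted p = 0.206 and 1). The Runx1 call, like those of the other genes in this comparison, depended on single libraries and on the scaling. It was lost without vehicle replicate 1 (log2 -1.30, adjusted p = 0.116), 2 (-1.02, 0.134) or 3 (-1.43, 0.0525), without PI3K inhibitor replicate 8 (-1.25, 0.11) or 9 (-1.08, 0.209), and without combination replicate 10 (0.0567), 11 (0.0631) or 12 (0.0657), each at log2 -1.26. It was also lost when libraries were scaled by library size only (-1.49, adjusted p = 0.0884). In each of these settings edgeR called 0 genes in this comparison, against 1359 with all specimens and TMM scaling. The smallest edgeR adjusted p of any gene in the main test was 0.0388. Over 23 alternatives Runx1 was called in 12, with an adjusted p between 0.00178 and 0.209.

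Gene length moved with this result. Runx1 is long, and the PI3K inhibitor libraries had less signal on long genes relative to the mean of the 12 specimens. With a gene length offset, a smooth correction of each library for the length trend, its length-adjusted levels were 57.4, 60.3 and 45.9 CPM in vehicle, 53.5, 50.6 and 48.6 with the BTK inhibitor, 43.8, 42.3 and 32.2 with the PI3K inhibitor and 43.5, 44.4 and 42.5 with the combination. The PI3K inhibitor specimens still lay below all 3 vehicle specimens, by a narrow margin. So did the combination specimens, which had overlapped vehicle without the offset. The share of all tested genes that lay so after the offset was not computed. The log2 difference of Runx1 between the PI3K inhibitor and vehicle shrank to -0.47 ± 0.19. Like every other gene in that setting, Runx1 was not called by edgeR (adjusted p = 0.171). Nor was it called with the offset when BTK inhibitor replicate 5 was left out (-0.47, adjusted p = 0.0585). The length trend differed between the groups, so the offset can also take out differences that go with treatment. Treatment and library differences in this trend cannot be told apart here. The part of the length trend in the level of Runx1 was not tested beyond this.

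Klf4, the monocyte-promoting factor, was the other factor that lay apart in the PI3K inhibitor group. It was at 37.7, 47.0 and 32.7 CPM in vehicle and at 25.5, 23.6 and 14.6 CPM with the PI3K inhibitor, with no overlap. Of all tested genes 26.3% also lay lower without overlap in this comparison. The combination specimens, at 27.2, 39.7 and 27.8 CPM, lay above every PI3K inhibitor specimen, as 26.5% of all tested genes did, and overlapped vehicle. BTK inhibitor replicate 5 had the highest Klf4 of all specimens at 69.3 CPM, against 26.3 and 31.5 CPM in replicates 4 and 6. The log2 difference of Klf4 between the PI3K inhibitor and vehicle was -0.88 ± 0.36 and did not pass by edgeR (edgeR adjusted p = 0.101, unadjusted 0.0287). It was called without BTK inhibitor replicate 5 (-0.87, adjusted p = 0.0198), by limma voom (-0.79, 0.0234), with only the compared groups in the edgeR fit (-0.88, 0.0243), and with the length offset and without replicate 5 (-0.76, 0.0361). In these settings, in this order, 4375, 4761, 4057 and 2410 genes were called, against 1359 of 12742 in the main test. With the length offset alone the log2 difference of Klf4 was -0.76 (adjusted p = 0.275), and over all 23 alternatives its adjusted p lay between 0.0198 and 0.321. In the BTK inhibitor group the sign for Klf4 rested on replicate 5: log2 0.10 with it and -0.43 without it. Summed monocyte markers moved the same way as Klf4 and Runx1 with the PI3K inhibitor, at 2561 to 2992 CPM in vehicle against 1505 to 1978 CPM. With the combination they were at 1897 to 2269 CPM, also wholly below vehicle, while Klf4 and Runx1 overlapped vehicle there. By group mean, Fn1 was at 104 CPM with the PI3K inhibitor against 661 in vehicle, and Cd14 was nearly level (24.1 against 24.9). All markers of the list were lower with the PI3K inhibitor except Ly6c2 (951 against 864 CPM). Of these 8 markers, Csf1r and Cd14 are also in the list of receptor genes. The part of monocyte markers in the levels of Klf4 and Runx1 was not tested.

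Gfi1, the repressor that opposes the monocyte programme, was at 61.7, 52.7 and 36.9 CPM in vehicle, and its spread within vehicle covered most other specimens. It was at 42.4, 45.4 and 27.9 CPM with the PI3K inhibitor and at 36.1, 43.95 and 35.2 CPM with the combination. BTK inhibitor replicate 5 was far below the rest at 18.0 CPM, from 89 counts, against 42.4 and 39.8 CPM in replicates 4 and 6. The log2 differences of Gfi1 from vehicle were -0.58 ± 0.33, -0.39 ± 0.33 and -0.39 ± 0.33 for the BTK inhibitor, the PI3K inhibitor and the combination, with no call. Without replicate 5 the first of these was -0.29. The per-length ratio of Gfi1 to Klf4 was 1.10 to 1.60 in vehicle, 1.08 to 1.30 with the combination and 1.63 to 1.88 with the PI3K inhibitor. With the BTK inhibitor it was 1.58 and 1.24 in replicates 4 and 6 and 0.254 in replicate 5, which had both the lowest Gfi1 and the highest Klf4 of all specimens.

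Spi1, the gene of PU.1, was lower in each combination specimen than in any vehicle specimen, as 9.47% of all tested genes were. It was at 452, 372 and 375 CPM in vehicle and at 289, 260 and 245 CPM with the combination. With the BTK inhibitor it was at 501, 312 and 300.3 CPM, and with the PI3K inhibitor at 345, 480 and 286 CPM. In these 2 groups 1 specimen lay above all vehicle specimens and the other 2 below them. The log2 difference between the combination and vehicle was -0.60 ± 0.28, at percentile 4.29 of the tested genes, and it was not called by edgeR (edgeR adjusted p = 1, unadjusted 0.051). Limma voom called it (-0.68, adjusted p = 0.021), the only 1 of 23 alternatives that did, and called 1231 genes in all. The differences for the single inhibitors were -0.11 ± 0.28 each, with 95% intervals of -0.74 to 0.53 for the BTK inhibitor and -0.75 to 0.53 for the PI3K inhibitor.

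Spi1 is short, and for the single inhibitors the length offset moved its differences from vehicle in the opposite direction to those of Runx1. With the length offset the adjusted levels of Spi1 were 523, 529 and 411 CPM in vehicle, 407, 238 and 339 with the BTK inhibitor, 323, 353 and 203 with the PI3K inhibitor and 310, 314 and 305 with the combination. All 9 inhibitor specimens then lay below all 3 vehicle specimens, although BTK inhibitor replicate 4 did so by a small margin. The share of all tested genes that did so after the offset was not computed. Without the offset 9.61%, 26.3% and 9.47% lay below vehicle for the BTK inhibitor, PI3K inhibitor and combination, each taken alone. The log2 differences became -0.57 ± 0.26, -0.73 ± 0.26 and -0.66 ± 0.26 for the BTK inhibitor, PI3K inhibitor and combination. None was called by edgeR over all specimens (adjusted p = 0.245, 0.134 and 0.667). The second was called with the offset when BTK inhibitor replicate 5 was left out (-0.73, edgeR adjusted p = 0.0292), the 1 call among its 23 alternatives, whose adjusted p reached 0.977. In that setting edgeR called 2410 genes.

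Cebpe, the regulator of secondary granule genes, had lower levels with the combination than with either inhibitor alone before the length offset. It was at 362, 239 and 270 CPM in vehicle, 455, 591 and 274 CPM with the BTK inhibitor, 329, 490 and 321 CPM with the PI3K inhibitor and 266, 195 and 162 CPM with the combination. The combination specimens lay below every specimen of either single inhibitor and overlapped vehicle. Of all tested genes, 6.73% lay lower without overlap in the combination than with the BTK inhibitor, and 24.6% than with the PI3K inhibitor. Summed neutrophil markers separated in the same way, at 49168 to 134110 CPM with the BTK inhibitor and 63607 to 132804 with the PI3K inhibitor. With the combination they were at 35247 to 45409 CPM. S100a8, S100a9 and Retnlg made up most of these sums. Single markers did not all go this way. From the PI3K inhibitor to the combination the mean of Cxcr2 went from 224 to 277 CPM, Mmp8 from 793 to 924 and Il1b from 134 to 148. S100a8, S100a9, Retnlg and Cd177 went down, and the part of these markers in the level of Cebpe was not tested. The log2 difference between the combination and the BTK inhibitor was -1.08 ± 0.33 (edgeR adjusted p = 0.186, unadjusted 0.00562), and that between the combination and the PI3K inhibitor -0.87 ± 0.33 (edgeR adjusted p = 0.131, unadjusted 0.0191). Against vehicle the log2 differences were 0.60 ± 0.33 for the BTK inhibitor, 0.39 ± 0.32 for the PI3K inhibitor and -0.48 ± 0.33 for the combination, with no call. With the length offset the differences from vehicle were 0.03, -0.29 and -0.55. The sign of Cebpe for the PI3K inhibitor thus turned with the offset. Its length-adjusted levels were 309, 350 and 222 CPM with the PI3K inhibitor and 288, 240 and 207 with the combination, which overlap, and the log2 difference between these groups shrank to -0.26. That between the combination and the BTK inhibitor became -0.58, and those groups still did not overlap. The share of all tested genes without overlap after the offset was not computed.

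Cebpd followed Cebpe closely. It was at 171, 121 and 132 CPM in vehicle, 233, 213 and 104 CPM with the BTK inhibitor, 145, 242 and 127 CPM with the PI3K inhibitor and 120, 94.7 and 84.7 CPM with the combination. The combination group lay below vehicle and below the PI3K inhibitor group without overlap, as 9.47% and 24.6% of all tested genes did. It overlapped the BTK inhibitor group through replicate 6. The log2 differences of Cebpd from vehicle were 0.37 ± 0.34, 0.27 ± 0.34 and -0.50 ± 0.34 for the BTK inhibitor, the PI3K inhibitor and the combination. Those of the combination from the BTK inhibitor and from the PI3K inhibitor were -0.88 ± 0.34 (edgeR adjusted p = 0.199, unadjusted 0.0224) and -0.78 ± 0.34 (edgeR adjusted p = 0.158, unadjusted 0.0386). The length offset changed these little for Cebpd, to -0.95 and -0.70.

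Cebpb was at 164, 148 and 155 CPM in vehicle and at 115, 102 and 129 CPM with the combination, with no overlap, as for 9.47% of all tested genes. With the BTK inhibitor it spread from 236 CPM in replicate 5 through 178 in replicate 4 to 95.9 CPM in replicate 6, and with the PI3K inhibitor it was at 145, 176 and 100.01 CPM. The log2 difference of Cebpb between the combination and vehicle was -0.43 ± 0.32 (edgeR adjusted p = 1, unadjusted 0.191). With the length offset it was -0.65 ± 0.28 for the PI3K inhibitor (edgeR adjusted p = 0.201) in place of -0.15 ± 0.31.

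Cebpa, the factor of the granulocyte-monocyte progenitor, had small differences from vehicle, with log2 values between -0.35 and -0.16. It was at 89.8, 100.6 and 55.7 CPM in vehicle, 80.5, 44.02 and 68.2 with the BTK inhibitor, 81.4, 93.5 and 45.3 with the PI3K inhibitor and 71.6, 59.5 and 68.7 with the combination. All groups overlapped. The 95% interval of the log2 difference between the PI3K inhibitor and vehicle ran from -0.90 to 0.58, so changes within these bounds remain compatible with the 3 specimens a group.

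Counts over the 8 factors were read against all genes. Between the BTK inhibitor and vehicle edgeR called 0 of 8 factors and 0% of tested genes, with 0 of 8 factors and 24.7% of genes at an unadjusted p under 0.05. DESeq2 and limma voom called 0 factors as well, beside 1085 and 2950 genes. The median log2 difference of the factors was 0.00, with 4 negative, against -0.02 over all genes. Without BTK inhibitor replicate 6 edgeR called Runx1 here (log2 -0.86, adjusted p = 0.0491) and 3809 genes. Between the PI3K inhibitor and vehicle the median of the factors was -0.16, with 6 negative, against -0.01 over all genes. With the length offset it was -0.38, with 7 negative.

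Between the combination and vehicle all 8 factors had a negative log2 difference, from -0.60 to -0.30, with a median of -0.41 against 0.00 over all genes. All 8 were negative as well with RLE, upper quartile, library size only and length-offset scaling, with medians of -0.42, -0.41, -0.29 and -0.45. Library size only moved the median of all genes by 0.12 in this comparison. EdgeR called 0 of 8 factors and 0% of tested genes, with 0 factors and 4.91% of genes at an unadjusted p under 0.05. DESeq2 called 0 factors and 22 genes, and limma voom called Spi1, Cebpe (-0.74, adjusted p = 0.0342) and Cebpd (-0.69, adjusted p = 0.0466) among 1231 genes. Spi1, Cebpb and Cebpd lay below vehicle without overlap, where 9.47% of all tested genes did. The comparisons with vehicle share their vehicle specimens, so they are not independent of each other.

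Among the inhibitor groups no factor passed by edgeR. Between the combination and the BTK inhibitor it called 0 of 8 factors and 0% of genes, with 2 factors (Cebpe and Cebpd) and 20.2% of genes at an unadjusted p under 0.05. DESeq2 called Cebpe (-1.12, adjusted p = 0.0381) among 577 genes, and limma voom called Cebpe, Cebpd and Spi1 among 4973 genes. Without BTK inhibitor replicate 6 edgeR called Cebpe (-1.33, adjusted p = 0.0102), Cebpd (-1.16, 0.0163) and Cebpb (-0.85, 0.0381) here, where leaving out 1 specimen gave 0 to 3470 genes. Between the combination and the PI3K inhibitor edgeR called 0 of 8 and 0% of genes, with 3 factors (Runx1, Cebpe and Cebpd) and 28.7% of genes at an unadjusted p under 0.05. DESeq2 called Runx1 there (0.94, adjusted p = 0.0381) among 1226 genes, and limma voom called Runx1, Cebpe, Cebpd and Spi1 among 5331 genes. With only these groups in the fit edgeR called Runx1 (adjusted p = 0.0124), Cebpe (0.0238) and Cebpd (0.0403), among 4004 genes called. It called Runx1 without BTK inhibitor replicate 5 (0.0393) or 6 (0.0405), and Cebpe without replicate 5 (0.0489), where leaving out 1 specimen gave 0 to 2499 genes. By edgeR over all specimens the log2 difference of Runx1 was 0.96 ± 0.29 (adjusted p = 0.125) and became 0.14 with the length offset. Between the PI3K inhibitor and the BTK inhibitor edgeR, DESeq2 and limma voom called 0 of 8, and edgeR called 0% of genes, with 2 factors and 6.21% of genes at an unadjusted p under 0.05. These were Klf4 (log2 -0.98 ± 0.36) and Runx1 (-0.64 ± 0.29), which lay lower with the PI3K inhibitor without overlap, both by less than 1 CPM, where 2.46% of all tested genes did.

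**Figure D2:**
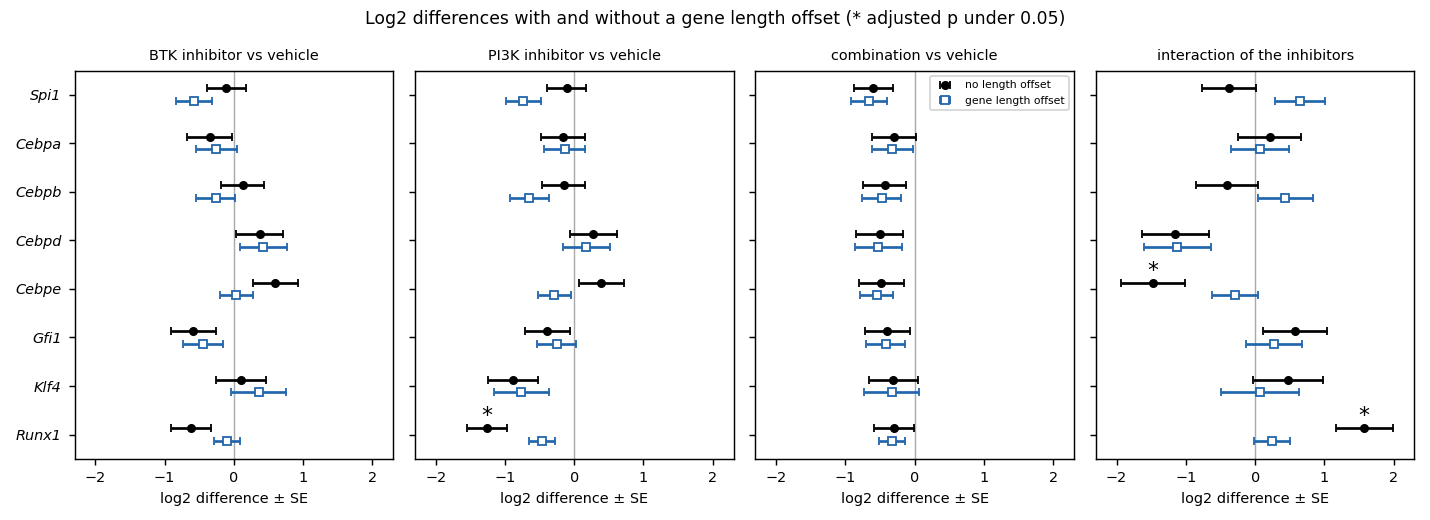
Log2 difference ± SE of each factor (x axis) in the 3 comparisons with vehicle and in the interaction, without (filled black) and with (open blue) a gene length offset, and an asterisk where the edgeR adjusted p was under 0.05. Runx1 carries the call against vehicle (-1.26, or -0.47 with the offset), and Runx1 and Cebpe those of the interaction (1.57 and -1.47, or 0.24 and -0.29 with the offset).

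The interaction asks whether the difference made by the PI3K inhibitor depends on the presence of the BTK inhibitor. Runx1 and Cebpe passed in opposite directions. For Runx1 the log2 difference made by the PI3K inhibitor was -1.26 without the BTK inhibitor and 0.31 with it, an interaction of 1.57 ± 0.41 (adjusted p = 0.0207, quasi-likelihood test of edgeR, Benjamini-Hochberg adjustment). For Cebpe these were 0.39 and -1.08, an interaction of -1.47 ± 0.46 (adjusted p = 0.0334). These 2 of 8 factors stand beside 27.6% of all tested genes called, and 3 of 8 beside 43.1% at an unadjusted p under 0.05, the third being Cebpd (-1.15 ± 0.48, adjusted p = 0.0856). With the length offset the interaction was 0.24 for Runx1 (adjusted p = 0.564) and -0.29 for Cebpe (0.591), and edgeR called 0 factors and 1 gene, while that of Cebpd was -1.12 (adjusted p = 0.149). Cebpd was called by limma voom (-1.39, adjusted p = 0.00571) and by edgeR without BTK inhibitor replicate 6 (-1.43, 0.0136), and Klf4 by limma voom (0.89, 0.0414). Limma voom called 6729 genes in the interaction, and edgeR 0 to 5692 when 1 specimen was left out. The Runx1 call was lost without vehicle replicate 2 (1.33, adjusted p = 0.0574), either of PI3K inhibitor replicates 8 (1.56, 0.0525) and 9 (1.40, 0.058), and either of combination replicates 11 (1.495, 0.0575) and 12 (1.53, 0.0594). The Cebpe call was lost without vehicle replicate 2 (-1.35, 0.0837) or 3 (-1.42, 0.0656), BTK inhibitor replicate 4 (-1.44, 0.0623), either of PI3K inhibitor replicates 8 (-1.25, 0.0896) and 9 (-1.58, 0.0595), and either of combination replicates 11 (-1.43, 0.0806) and 12 (-1.32, 0.0931). With library size only, which moved the median interaction of all genes by 0.70, Cebpe was at -0.60 (adjusted p = 0.244). Without BTK inhibitor replicate 5 both were called (1.49, 0.0241 and -1.19, 0.0496), as they were without replicate 6 (1.81, 0.00339 and -1.72, 0.0055). Over 22 alternatives Runx1 was called in 15 and Cebpe in 12, with adjusted p up to 0.564 and 0.743.

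**Figure D3:**
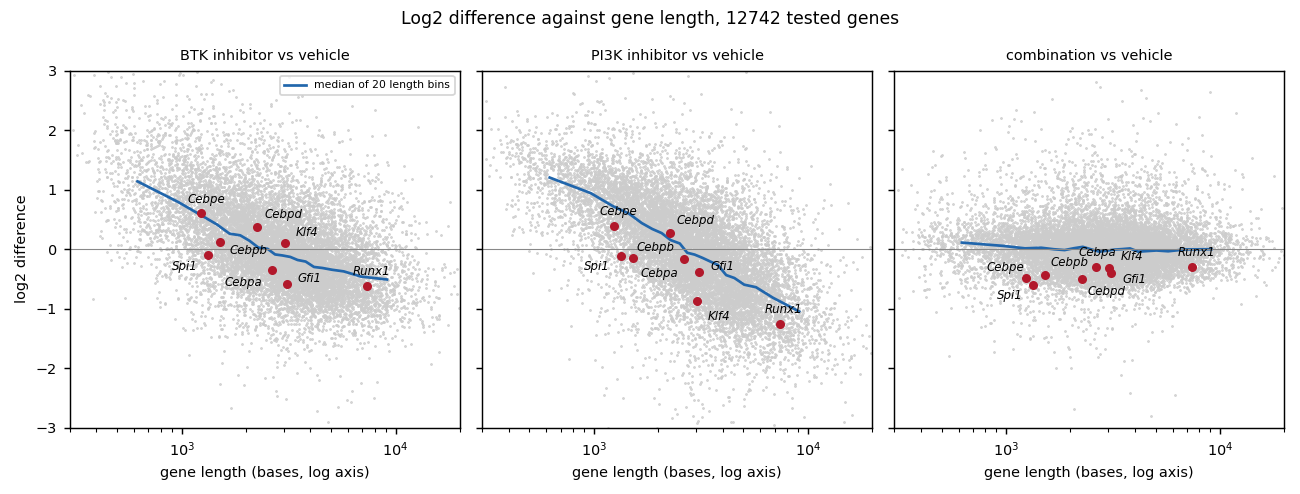
Log2 difference from vehicle (y axis) against counted gene length in bases (x axis, log scale) for the tested genes (grey, genes outside the plotted range not drawn) and the 8 factors (red), with the median of 20 length bins (blue). The blue line slopes down for each single inhibitor and is flat for the combination, and the factors run from Cebpe (1238 bases) on the upper left to Runx1 (7378 bases) on the lower right, while all 8 lie below the line in the combination panel.

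The binding partners and relatives of the factors were counted in the comparison of the PI3K inhibitor with vehicle, where 10.7% of all genes were called. Of 9 genes of the RUNX1 family and its hematopoietic complex, 3 fell and 1 rose, with a median log2 difference of -0.79. Runx2, a paralogue, fell from 42.2 ± 10.5 to 16.4 ± 2.44 CPM (SD, n = 3), and Erg, an ETS factor of stem cells, and Cbfa2t3, a corepressor, fell by 1.12 and 1.11 on the log2 scale. Lmo2, a bridging protein of the complex, rose from 137 ± 21.6 to 260.4 ± 57.1 CPM. Runx2, Erg and Cbfa2t3 were no longer called with the length offset, nor was Lmo2, and edgeR called 0 genes in that setting. Of 11 partners and antagonists of PU.1 only Gata1, the erythroid factor that antagonises PU.1, was called, rising by 1.69 on the log2 scale from 47.0 ± 17.8 to 152 ± 52.5 CPM (edgeR adjusted p = 0.0407). BTK inhibitor specimens had 118 ± 77.1 CPM of Gata1 and combination specimens 97.4 ± 7.29. Summed erythroid markers, Gata1 included, were at 534 to 2163 CPM in vehicle. They were at 1136 to 2230 CPM with the BTK inhibitor and 1661 to 3317 with the PI3K inhibitor, both overlapping vehicle, and at 2689 to 2990 with the combination. Of 10 other myeloid factors only Rara, the retinoic acid receptor, fell (81.4 ± 14.4 to 42.7 ± 7.60 CPM). Neither Gata1 (edgeR adjusted p = 0.107) nor Rara (0.198) was called with the length offset. EdgeR called 0 of the 5 C/EBP relatives and regulators, the 6 GFI1 corepressors and paralogue and the 7 other KLF factors, with 3, 4 and 3 at an unadjusted p under 0.05, where DESeq2 called 1, 2 and 3 and limma voom 3, 4 and 3. Among these the smallest p were those of Ddit3 (0.89), Klf1 (1.16) and Rcor1 (-1.95 on the log2 scale).

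Receptor and signalling genes known as targets of PU.1 and C/EBP factors had negative medians against vehicle in all 3 inhibitor groups. With the PI3K inhibitor 5 of 12 fell and 11 of 12 were negative, with a median log2 difference of -1.26 (-0.97 with the length offset) against -0.01 over all genes. Csf2rb, the common beta chain of the GM-CSF and IL-3 receptors, whose reads can be shared with its close paralogue Csf2rb2, fell from 267 ± 63.3 to 97.4 ± 24.5 CPM (log2 -1.46 ± 0.27, edgeR adjusted p = 0.0388). Csf3r, the G-CSF receptor, fell from 623 ± 125 to 239.8 ± 39.04 CPM and the integrin gene Itgam from 1361 ± 161 to 574 ± 170.1 CPM, and Il6ra and Tlr4 fell as well. None of the 5 was called with the length offset, where the smallest adjusted p was 0.063 for Csf2rb. With the BTK inhibitor 12 of 12 were negative with a median of -0.96 (-0.82 and 9 of 12 with the length offset), and with the combination 12 of 12 with a median of -0.52 (-0.55 with the offset), in both cases with 0 calls by edgeR. At an unadjusted p under 0.05 there were 6 and 2, with 2 and 0 calls by DESeq2 and 6 and 2 by limma voom. Of all tested genes 24.7% and 4.91% had such a p in these 2 comparisons, DESeq2 called 1085 and 22 genes, and limma voom 2950 and 1231. In the interaction, where 27.6% of all tested genes were called, 6 of 12 passed, all positive: Csf2rb (1.69), Il6ra (2.65), Csf3r (2.13), Tlr4 (1.66), Csf1r (2.19) and Csf2ra (2.22). None of these 6 was called with the length offset, with edgeR adjusted p from 0.0621 to 0.108.

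**Figure D4:**
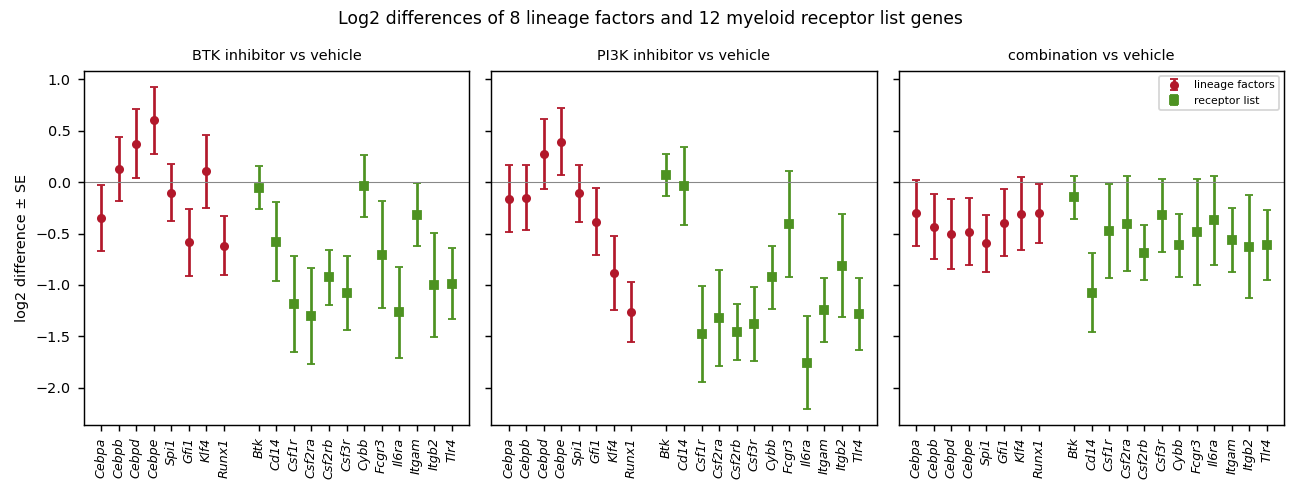
Log2 difference ± SE from vehicle (y axis) of the 8 lineage factors (red circles) and 12 genes of the myeloid receptor list (green squares), by gene (x axis) and comparison. The receptor list has medians of -0.96, -1.26 and -0.52 in the 3 panels against 0.00, -0.16 and -0.41 for the factors.

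Granule genes, known as targets of C/EBPα, C/EBPε and GFI1, were called by edgeR in no comparison with vehicle. For each single inhibitor 0 of 7 primary and 2 of 10 secondary and tertiary granule genes had an unadjusted p under 0.05, with 0 and 1 calls by DESeq2. Of all tested genes 24.7% had such a p with the BTK inhibitor and 35.7% with the PI3K inhibitor, and DESeq2 called 1085 and 3221. In the combination group 7 of 7 primary granule genes (median log2 -0.45) and 10 of 10 secondary and tertiary granule genes (-0.61) were negative, beside the negative values of all 8 factors and under each of the 5 scalings. Of these 17 genes 1 had an unadjusted p under 0.05 in edgeR, DESeq2 called 0 and limma voom 4. Lcn2, which encodes a siderophore-binding protein, was at 5095 ± 804.4 CPM in vehicle and 3014 ± 320.5 with the combination, and the myeloperoxidase gene Mpo at 3896 ± 1235 and 2605 ± 314 CPM. Summed neutrophil markers were at 40760 to 69485 CPM in vehicle and at 35247 to 45409 CPM with the combination, and summed granulocyte-monocyte precursor markers at 5113 to 8459 and 4247 to 5785 CPM, so both overlapped between these groups. The marker lists share genes with the granule lists, such as Mpo and Mmp8, and their part in these values was not tested. With the PI3K inhibitor the primary granule list had a median of 0.36 and, with the length offset, of -0.51, with 2 and then 7 of 7 negative.

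Likeness between genes was measured as the root mean square difference of log2 CPM, centred on each gene's mean over the 12 specimens, among 9547 genes. The closest pair among the 8 factors was Cebpd and Cebpe at 0.172, and 0.325% of genes were closer to Cebpd than Cebpe was. Cebpa and Gfi1 followed at 0.231 (1.01%), and then Cebpd and Spi1 at 0.289 and Cebpb and Cebpd at 0.292. Cebpe and Runx1 were the least alike, at 0.942. The gene most like Cebpe was Emp3 (0.101) and the one most like Cebpd was Arhgdib (0.0816), which was also the second for Cebpe. Glipr2 (0.0898) and Snx20 (0.104) were close to Spi1. Erg, the stem cell ETS factor, was the gene most like Klf4 (0.138), R3hdm2 (0.108) that most like Runx1, Mcu (0.136) that most like Gfi1, Siglece (0.146) that most like Cebpb and Sptlc2 (0.131) that most like Cebpa. These values describe 12 libraries that differ in depth and length trend.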

How the data were processed

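Total RNA was prepared with a micro-column kit, amplified as full-length cDNA with SMART-Seq v4 and tagmented with Nextera XT, per the labels, a method that does not mark strand. Reads were aligned with STAR and counted with featureCounts on mm10, per the submitters' processing notes; for neither is a version or strand setting given in the sources used here. Per gene, the deposited table holds whole-number counts, 1 column for each of 12 specimens (24 samples are listed, 2 per specimen), with gene length in bases. The tests were run with edgeR 4.0.16 in R 4.3.3: filterByExpr by group (smallest count 10, total 15), TMM scaling, a group-means quasi-likelihood model over all 12 specimens (glmQLFit and glmQLFTest, robust), Benjamini-Hochberg adjustment over 12742 genes. Genes with an adjusted p under 0.05 were called, in 7 comparisons. Standard errors were taken from the F statistic, and 95% intervals use 8 degrees of freedom, so an interval need not match its test. CPM are TMM scaled, with a prior count of 2 for log2 CPM.

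Alternatives were RLE, upper quartile and library size scaling, other filters, DESeq2 1.42.0, limma 3.58.1 voom with quality weights, only the compared groups, a length offset (natural spline, 5 degrees of freedom per library), and leaving out each specimen. The tests were tried on simulated counts. The 8 genes, the 9 gene lists and the 11 marker lists were chosen with earlier results of these data known, so list counts and medians are descriptions. Named genes are all 8 factors, up to 4 called genes of each list or the 2 with the smallest p in comparisons with vehicle and the interaction, and genes from the 3 most like each factor (mean log2 CPM of at least 2), some of which are not reported here. Granule, Csf1r, Csf2ra and Tlr4 values beside these were chosen after their values were seen. Lists between inhibitor groups and for the BTK inhibitor are not given in full.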

Additional observations from a re-analysis of the deposited data

Results flagged for a closer look

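In the interaction (quasi-likelihood test of edgeR, Benjamini-Hochberg adjustment), 2 of 8 factors and 14 of the list genes named by the rule were called. This term asks whether the difference made by the PI3K inhibitor depends on the presence of the BTK inhibitor. Of all tested genes 27.6% were called in it, so the calls do not set the factors apart from other genes. Among the factors the called genes were Runx1 (1.57) and Cebpe (-1.47), on the log2 scale. Among relatives and partners they were Runx2 (1.94), Cbfa2t3 (1.59), Klf3 (2.46), Ikzf1 (1.43), Rcor1 (3.17), Gata1 (-1.97) and Hdac1 (-1.05). Among targets they were Csf2rb (1.69), Il6ra (2.65), Csf3r (2.13) and Tlr4 (1.66) on the positive side and Ms4a3 (-1.45), Camp (-3.67) and Mcemp1 (-1.55) on the negative side. Their adjusted p lay between 0.0202 and 0.0482. With the gene length offset none of the 16 was called by edgeR, and the smallest adjusted p was 0.0621 (Il6ra).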

How the results depend on the processing

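Over 23 alternatives and 56 factor results, no called factor changed sign, and 81 of 1280 alternative values did so without a call. Of the other genes, Ms4a3 reversed its interaction with the length offset (0.0105). Counts of called factors and genes by edgeR moved as follows. Against vehicle, the BTK inhibitor gave 1 gene without a filter, 1085 by DESeq2, 2950 by limma voom and 1 with the length offset and without replicate 5; leaving out 1 specimen gave 0 to 3809 genes and 0 to 1 factors. The PI3K inhibitor gave 0 factors and 0 genes with library size only and with the length offset, 3221 genes by DESeq2, 2 factors and 4761 genes by voom, 2 and 4057 with only the compared groups, and 2 and 2410 with the offset and without replicate 5; leaving out 1 specimen gave 0 to 2 factors and 0 to 4375 genes. The combination gave 1 gene without a filter, 22 by DESeq2, and 3 factors and 1231 genes by voom; leaving out 1 specimen gave 0 of both. Against the BTK inhibitor, it gave 1 gene without a filter, 1 factor and 577 genes by DESeq2, 3 and 4973 by voom, and 1 gene with the offset and without replicate 5 (0 to 3 factors and 0 to 3470 genes without 1 specimen). Against the PI3K inhibitor, it gave 1 factor and 1226 genes by DESeq2, 4 and 5331 by voom, and 3 and 4004 with only the compared groups (0 to 2 and 0 to 2499 without 1 specimen). Between the single inhibitors, leaving out 1 specimen gave 0 factors and 0 to 1 genes. The interaction gave 1 factor and 1518 genes with library size only (1130 higher and 388 lower, against 1530 and 1992), 4 and 6729 by voom, 0 and 1 with the offset, and 0 and 539 with the offset and without replicate 5 (0 to 3 and 0 to 5692 without 1 specimen). The cause of these moves was not tested. Library size only moved the median of all genes by -0.34, -0.25 and 0.12 for the BTK inhibitor, the PI3K inhibitor and the combination against vehicle. No paired analysis was possible because the groups share no replicate numbers. With 3 specimens a group, differences of the size seen for most factors could not be told from the spread.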
